A study of Mus musculus with 9 samples.

Results

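The genes described here are 10 genes of insulin and glucagon signalling in mouse liver: Insr, Irs1, Irs2, Pik3r1, Akt2, Foxo1, Gcgr, Creb3l3, Ppp1r3b and Pdk4. They were taken by gene symbol from a list, drawn up with earlier results of these data known, and all 10 were found among the 19938 genes with a symbol of their own on the array. A gene with more than 1 probe set was read from its brightest. Liver RNA of male C57BL/6J mice was pooled, 5 mice to a pool, and an Affymetrix Mouse Gene 1.0 ST array was run on each of the 9 pools. The HF-HP diet held 35% of its energy as fat, 50% as protein and 15% as carbohydrate, and the LF-HP diet held 10, 50 and 40%. The HF-NP diet held 35, 15 and 50%, and the LF-NP diet 10, 15 and 75%, so at either fat level the HP diet held less carbohydrate. Each diet has a pool from mice fed it for 12 weeks (aged 22 weeks per the labels) and a pool from mice fed it for 1 week (aged 13 weeks). The last pool is the reference, from mice aged 12 weeks killed at the end of the LF-NP run-in that all groups received (week 0). All mice ate a calibrated meal before they were killed, so the livers were taken in the fed state.

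Insulin, released after a meal, binds its receptor on the hepatocyte, which phosphorylates the adaptor proteins IRS1 and IRS2. These recruit phosphoinositide 3-kinase, and the kinase AKT2 then promotes glycogen storage and keeps the transcription factor FOXO1 out of the nucleus. Glucagon, which rises between meals and after protein is eaten, acts through its own receptor and cyclic AMP in the opposite direction, towards glycogen breakdown and glucose production.

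The promoters of the adaptor genes Irs1 and Irs2 and of Pdk4 are shown, the adaptors because both hold the same pair of motifs and Pdk4 because it had the widest range of the 10 genes. Sequences are from RefSeq (build GRCm38.p6), the 250 bases before the annotated start, 5′ to 3′ on the gene's strand, and 8 of the 10 genes have entries there, 13 in all. Capitals mark matches, on either strand, to any of the 4 motifs searched: the E-box CACGTG, the letters TGTTTTG known as an insulin response element of the Irs2 promoter, the FOXO motif GTAAACA and TGACG, the core letters of the cyclic AMP response element.
Irs1 (chr1:82291440-82291689, minus strand): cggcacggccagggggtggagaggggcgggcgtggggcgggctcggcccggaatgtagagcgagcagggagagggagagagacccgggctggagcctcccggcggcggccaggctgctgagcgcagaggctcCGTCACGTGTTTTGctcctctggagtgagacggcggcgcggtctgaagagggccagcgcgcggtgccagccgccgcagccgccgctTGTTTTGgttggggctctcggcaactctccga
Irs2 (chr8:11008930-11009179, minus strand): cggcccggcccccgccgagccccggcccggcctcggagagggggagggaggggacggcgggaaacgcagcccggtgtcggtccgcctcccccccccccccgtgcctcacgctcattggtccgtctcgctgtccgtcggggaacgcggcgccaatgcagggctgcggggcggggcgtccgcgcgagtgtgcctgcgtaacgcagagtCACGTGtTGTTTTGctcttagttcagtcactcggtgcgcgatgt
Pdk4 (chr6:5496279-5496528, minus strand): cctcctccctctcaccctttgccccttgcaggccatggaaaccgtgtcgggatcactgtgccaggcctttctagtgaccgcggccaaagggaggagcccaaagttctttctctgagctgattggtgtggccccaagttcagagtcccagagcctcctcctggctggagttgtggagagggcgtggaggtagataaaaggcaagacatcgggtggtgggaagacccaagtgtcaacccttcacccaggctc

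The Irs2 promoter held an E-box 44 bases before the start and TGTTTTG 37 bases before it, separated by a single letter. In the Irs1 promoter the E-box (115 bases before the start) overlapped both TGTTTTG (111 bases) and TGACG read on the reverse strand (118 bases), and TGTTTTG occurred again at 32 bases. Among 32851 mouse promoter entries of the same length, 6.02% held CACGTG, 5.56% TGTTTTG, 3.17% GTAAACA and 17.8% TGACG, and 0.295% held both CACGTG and TGTTTTG. No motif matched in the printed Pdk4 window, nor in the Gcgr and Foxo1 entries. TGACG matched in some but not all entries of Akt2, Creb3l3 and Pik3r1, and TGTTTTG also in Creb3l3. These matches describe the letters of the window and were not set against the expression values.

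Values are log2 RMA signals as deposited, in which a difference of 1 is a doubling of signal. Array medians over genes lay between 5.825 and 5.89, and the arrays correlated with each other at 0.988 to 0.993 across genes. The hepatocyte markers, 8 of 8, stood above the median level of all genes, at 11.9 to 13.9, as did 7 of 7 liver endothelial, 6 of 6 stellate and 6 of 7 Kupffer cell and macrophage markers. Of the other lists, 2 of 7 lymphocyte, 1 of 8 pancreas, 1 of 6 adipocyte, 1 of 4 cholangiocyte and 1 of 4 skeletal muscle markers did. The summed linear signal of the Kupffer cell and macrophage markers was 1370 to 2510 in HP pools and 1870 to 2620 in NP pools (median log2 difference -0.15), and that of the lymphocyte markers 188 to 232 in HP pools and 227 to 261 in NP pools (median -0.22). Medians of the other lists lay between -0.04 and 0.09, and the part of other cell types in the results below was not tested. None of the marker genes passed the test between HP and NP pools. Deposited values were shared exactly by 2 or more pools in 62.2% of genes, among them Insr (9.83 in 3 pools) and Irs2 (7.57 in a pair of pools). Such ties may change the spread or the difference that the test sees, which was not tested. Fewer hepatocytes and less RNA per hepatocyte cannot be told apart in liver RNA.

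**Figure D1:**
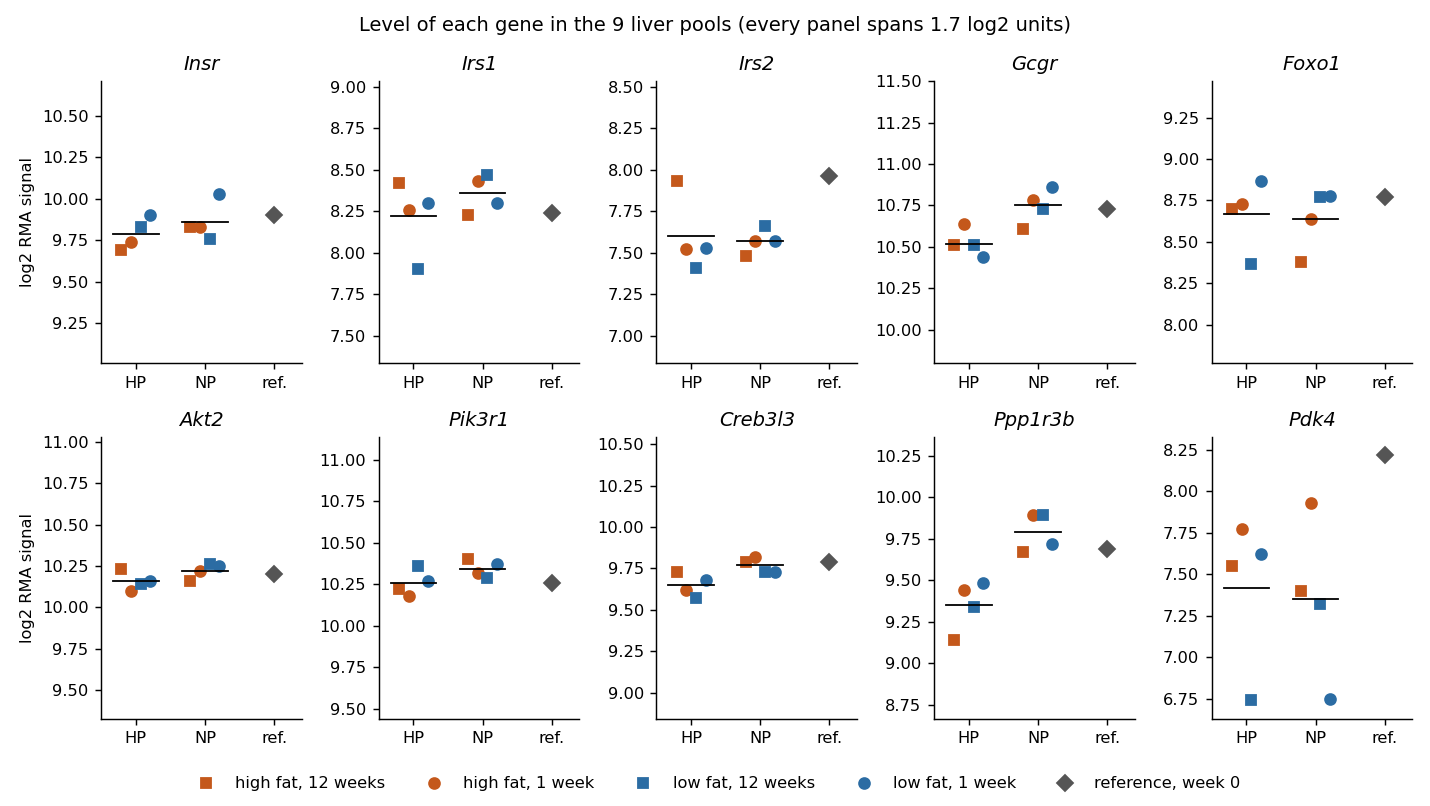
Log2 RMA signal of each gene (vertical axis, each panel covering the same span) in the HP, NP and reference pools. Each point is 1 pool of 5 mice, colour gives the fat level, shape the week, and the black bars are means of 4 pools. Ppp1r3b is lower in all 4 HP pools than in all 4 NP pools, and Pdk4 and Irs2 are highest in the reference pool.

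The first comparison asked whether the genes differ with dietary protein, HP over NP, across fat levels and weeks. None of the 10 genes passed the test at an adjusted p under 0.05 (limma, Benjamini-Hochberg over 19938 genes), against 0.441% of all genes. These were 88 genes, a number that was 1 to 36 when 1 pool was left out and 39 with matched comparisons as blocks. With all probe sets it was 1, with an intensity trend 118, with array weights 140 and with centred arrays 152. The gene nearest to the threshold was Ppp1r3b, which was 26.6% lower in HP pools than in NP pools, and the next was Gcgr, which was 14.3% lower. At an unadjusted p under 0.05 these 2 of 10 genes were called, against 10.3% of all genes. The difference was below 0 for 7 genes and above 0 for 3, with a median of -0.078, while 51.9% of all genes were below 0 with a median of -0.004.

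Ppp1r3b encodes a liver subunit that brings protein phosphatase 1 to glycogen and so favours glycogen synthesis. Its signal in HP pools was 9.14 (HF-HP, 12 weeks), 9.44 (HF-HP, 1 week), 9.34 (LF-HP, 12 weeks) and 9.48 (LF-HP, 1 week). In NP pools it was 9.67 (HF-NP, 12 weeks), 9.89 (HF-NP, 1 week), 9.89 (LF-NP, 12 weeks) and 9.72 (LF-NP, 1 week), and the reference pool had 9.69. Every HP pool lay below every NP pool and below the reference pool, a separation that 2.91% of all genes showed between HP and NP pools in this direction and 1.88% in the other. The means were 9.35 ± 0.15 in HP pools and 9.79 ± 0.12 in NP pools (SD, n = 4 each), a difference of -0.45 (SE 0.08, 95% interval -0.64 to -0.25, adjusted p = 0.0946 by limma).

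Within matched fat level and week, Ppp1r3b was lower in the HP pool by 0.53 (high fat, 12 weeks), 0.46 (high fat, 1 week), 0.55 (low fat, 12 weeks) and 0.24 (low fat, 1 week) on the log2 scale. By diet, the mean levels ran HF-HP 9.29, LF-HP 9.41, HF-NP 9.78 and LF-NP 9.81. The neighbours within a protein level overlapped in their 2 pools, whereas the lowest HF-NP pool (9.67) stood above the highest LF-HP pool (9.48). The adjusted p was 0.0366 by limma when only the 9969 genes above the median level were tested, so whether Ppp1r3b passes depends on that choice. It lay between 0.0794 and 0.332 when 1 pool was left out and was 0.266 with all probe sets (limma).

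Gcgr, the glucagon receptor, had 10.51 and 10.64 in the HF-HP pools of 12 weeks and 1 week and 10.51 and 10.44 in the LF-HP pools of 12 weeks and 1 week. The HF-NP pools had 10.61 and 10.78 at 12 weeks and 1 week, the LF-NP pools 10.73 and 10.86, and the reference pool 10.73. The HF-HP pool of 1 week lay above the HF-NP pool of 12 weeks, so the groups overlapped by that pair alone. Means were 10.52 ± 0.08 in HP pools and 10.75 ± 0.10 in NP pools (SD, n = 4 each), a difference of -0.22 (SE 0.07, 95% interval -0.39 to -0.06, adjusted p = 0.309 by limma). All 4 matched comparisons were below 0, from -0.42 (low fat, 1 week) to -0.10 (high fat, 12 weeks).

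Creb3l3 encodes CREBH, a liver transcription factor anchored in the endoplasmic reticulum that is released by proteolysis, among other times during fasting. It had 9.73 and 9.62 in the HF-HP pools of 12 weeks and 1 week and 9.57 and 9.68 in the LF-HP pools, against 9.79 and 9.82 in the HF-NP pools and 9.73 and 9.73 in the LF-NP pools, with 9.79 in the reference pool. The highest HP pool and the lowest NP pools met at 9.73. Means were 9.65 ± 0.07 in HP pools and 9.77 ± 0.05 in NP pools (SD, n = 4 each), a difference of -0.12 (SE 0.06, adjusted p = 0.555 by limma). It was lower in the HP pool in 4 of 4 matched comparisons, as were Ppp1r3b and Gcgr, and these were 3 of the 10 genes, while 8.11% of all genes were lower in all 4. No gene of the 10 was higher in all 4, against 6.01% of all genes.

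The receptor and the enzymes just below it varied little between pools. Insr, the insulin receptor, had 9.69, 9.74, 9.83 and 9.90 in the HF-HP pools (12 weeks, 1 week) and LF-HP pools (12 weeks, 1 week), 9.83, 9.83, 9.76 and 10.03 in the HF-NP and LF-NP pools in the same order, and 9.90 in the reference pool. Pik3r1, the regulatory subunit of phosphoinositide 3-kinase, had 10.22, 10.18, 10.36 and 10.27 in the HP pools, 10.40, 10.32, 10.29 and 10.37 in the NP pools, and 10.26 in the reference pool. HP and NP pools overlapped for both genes, with differences of -0.07 (SE 0.06, adjusted p = 0.794) for Insr and -0.08 (SE 0.06, adjusted p = 0.74) for Pik3r1 by limma.

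Akt2, the AKT kinase that carries most of the insulin signal in liver, had the narrowest range of the 10 genes. It had 10.23 and 10.10 in the HF-HP pools of 12 weeks and 1 week and 10.14 and 10.16 in the LF-HP pools, 10.16 and 10.22 in the HF-NP pools, 10.26 and 10.25 in the LF-NP pools, and 10.20 in the reference pool. HP and NP pools overlapped. The difference was -0.07 (SE 0.06, 95% interval -0.20 to 0.07, adjusted p = 0.794 by limma). The probe set used for Akt2 stands among probe sets named for genes of chromosome 11 (10 of its 10 nearest identifiers), although Akt2 lies on chromosome 7. Whether this probe set reads Akt2 alone was not tested, and the other Akt2 probe set, whose 10 neighbours are all named for chromosome 7, differed by -0.02.

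The adaptors and Foxo1 ranged more widely over the pools than Insr, Pik3r1 and Akt2. Irs1, one of the insulin receptor's main substrates, had 8.42 and 8.26 in the HF-HP pools of 12 weeks and 1 week and 7.90 and 8.30 in the LF-HP pools, 8.23 and 8.43 in the HF-NP pools, 8.47 and 8.30 in the LF-NP pools, and 8.24 in the reference pool. Irs2, the other main substrate in liver, had 7.93 and 7.52 in the HF-HP pools and 7.41 and 7.53 in the LF-HP pools, 7.48 and 7.57 in the HF-NP pools, 7.66 and 7.57 in the LF-NP pools, and 7.96 in the reference pool. Both were at their lowest in the LF-HP pool of 12 weeks, and Irs2 stood out as high in the HF-HP pool of 12 weeks and the reference pool.

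Foxo1, whose protein drives glucose production when insulin is low, had 8.70 and 8.73 in the HF-HP pools of 12 weeks and 1 week and 8.37 and 8.87 in the LF-HP pools, 8.38 and 8.64 in the HF-NP pools, 8.77 and 8.78 in the LF-NP pools, and 8.77 in the reference pool. The LF-HP and HF-NP pools of 12 weeks were both low, and the other 7 pools lay between 8.64 and 8.87. The differences between HP and NP pools were -0.14 (SE 0.12, adjusted p = 0.776) for Irs1, 0.02 (SE 0.11, adjusted p = 0.972) for Irs2 and 0.02 (SE 0.11, adjusted p = 0.973) for Foxo1 by limma.

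Pdk4, a kinase that switches off pyruvate dehydrogenase and so spares glucose and the carbon of amino acids, had the widest range of the 10 genes, 1.48 over the 9 pools, wider than 99.3% of all genes. It had 7.55 and 7.77 in the HF-HP pools of 12 weeks and 1 week and 6.74 and 7.62 in the LF-HP pools, 7.40 and 7.93 in the HF-NP pools, 7.32 and 6.75 in the LF-NP pools, and 8.22 in the reference pool. An HP pool and an NP pool shared the bottom of the range, and the groups overlapped over nearly all of it. The HP over NP difference was 0.07 (SE 0.20, 95% interval -0.40 to 0.54, adjusted p = 0.954 by limma), with matched comparisons between -0.58 (low fat, 12 weeks) and 0.87 (low fat, 1 week).

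The LF-HP pool of 12 weeks held the lowest value of the 8 diet pools for 5 of the 10 genes (Irs1, Irs2, Foxo1, Creb3l3 and Pdk4), while it did so for 17.4% of all genes. The other diet pools held the lowest value for 8.78 to 16.5% of all genes. Between the HP pools of 12 weeks, the HF over LF difference was 0.53 for Irs1, 0.52 for Irs2, 0.32 for Foxo1, 0.16 for Creb3l3 and 0.81 for Pdk4. As these 5 genes were picked for being lowest in the LF-HP pool of 12 weeks, this difference had to be above 0. At 1 week the same HP diets differed by -0.04 for Irs1, -0.02 for Irs2, -0.14 for Foxo1, -0.06 for Creb3l3 and 0.16 for Pdk4. Each of these values comes from a single pair of pools and has no test of its own.

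**Figure D2:**
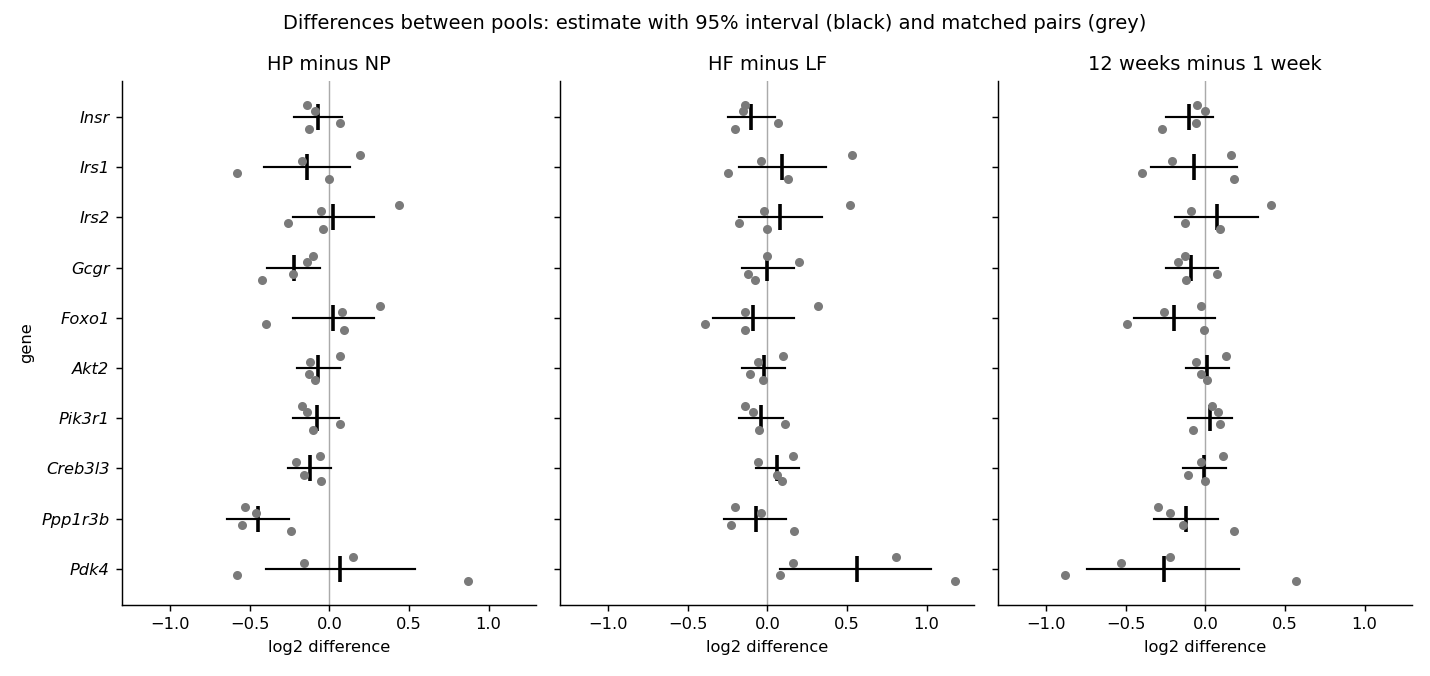
Log2 difference (horizontal axis) of each gene for HP minus NP, HF minus LF and 12 weeks minus 1 week. The black tick and line are the limma estimate and its 95% interval over the 8 diet pools, and the grey points are the 4 matched pairs of pools. Only for Ppp1r3b and Gcgr (HP minus NP) and Pdk4 (HF minus LF) does the interval leave out 0, and none of these passed after adjustment.

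The second comparison set HF against LF diets across protein levels and weeks. At either protein level the HF diet held less carbohydrate than the LF diet, so fat and carbohydrate cannot be told apart here. None of the 10 genes passed (limma), and 0.0% of all genes did. Pdk4 was the only one of the 10 at an unadjusted p under 0.05, against 3.33% of all genes. It was 1.47-fold as high in HF pools, with means of 7.66 ± 0.23 in HF pools and 7.11 ± 0.44 in LF pools (SD, n = 4 each), a log2 difference of 0.56 (SE 0.20, 95% interval 0.08 to 1.03, adjusted p = 0.999 by limma). The HF pool was higher in 4 of 4 matched comparisons, by 0.81 (HP, 12 weeks), 0.16 (HP, 1 week), 0.08 (NP, 12 weeks) and 1.18 (NP, 1 week), a pattern shown by 3.47% of all genes. Without the LF-NP pool of 1 week the difference was 0.33, and leaving out any other pool gave 0.42 to 0.75. Of the 4 LF pools, the LF-HP pool of 1 week (7.62) lay above the lower HF pools, so the groups overlapped. The other 9 genes had differences between -0.10 (Insr) and 0.09 (Irs1).

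The third comparison set 12 weeks against 1 week of diet. The mice were also older at 12 weeks (22 against 13 weeks of age), so age and time on the diet cannot be told apart. By limma 0 of the 10 genes passed and 0 were called at an unadjusted p under 0.05, against 0.00502% and 7.71% of all genes. Foxo1 came nearest, with means of 8.56 ± 0.21 at 12 weeks and 8.75 ± 0.09 at 1 week (SD, n = 4 each) and a difference of -0.20 (SE 0.11, adjusted p = 0.693). It was lower at 12 weeks in 4 of 4 diets, by 0.03 (HF-HP), 0.49 (LF-HP), 0.26 (HF-NP) and 0.01 (LF-NP), a pattern shown by 8.85% of all genes. The differences of the LF-HP and HF-NP diets were the larger ones. Pdk4 differed by -0.26 (SE 0.20, adjusted p = 0.764), with the LF-NP pools going the other way (0.57 higher at 12 weeks).

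Whether the response to protein depended on fat or on week was tested by interaction terms. None of the 10 genes passed either test, and 0.0% of all genes did in both (limma). No gene of the 10 had an unadjusted p under 0.05 in either test, against 7.02% of all genes for protein by fat and 2.62% for protein by week. The largest values for protein by fat were 0.36 for Foxo1 (SE 0.19, adjusted p = 0.733), 0.34 for Irs2 (SE 0.19, adjusted p = 0.733) and 0.30 for Irs1 (SE 0.22, adjusted p = 0.753). A value above 0 means a higher HP over NP difference on the HF diets, and the pools of 12 weeks carried it. At 1 week that difference was 0.08 (HF) and 0.09 (LF) for Foxo1 and -0.05 and -0.04 for Irs2. For Irs1 it was -0.17 (HF) and 0.00 (LF). For protein by week the largest was -0.57 for Pdk4 (SE 0.37, 95% interval -1.46 to 0.32, adjusted p = 1.0).

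The reference pool was set beside the 8 diet pools, with no test because it is a single pool. Pdk4 and Irs2 were lower in all 8 diet pools than in the reference pool, 2 of the 10 genes, against 7.65% of all genes. The fold over the reference pool lay between 0.358 and 0.816 for Pdk4 and between 0.68 and 0.974 for Irs2. For Irs2 the HF-HP pool of 12 weeks was nearly level with the reference pool (-0.04), and the other 7 pools lay 0.30 to 0.56 below it. The LF-HP pool of 12 weeks and the HF-HP pool of 1 week each had 9 of the 10 genes below the reference pool. Their medians were -0.29 and -0.13, while the median over all genes was 0.000 in both. In the other diet pools 3 to 8 of the 10 genes were below it.

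The LF-NP pools, with the reference pool as week 0, come from mice kept on the run-in diet. Each is a single pool of other mice, aged 12, 13 and 22 weeks in turn. Age, the mice pooled and the array cannot be told apart in the span of their values. Over weeks 0, 1 and 12 Pdk4 had 8.22, 6.75 and 7.32, a span of 1.47. For Irs2 the values were 7.96, 7.57 and 7.66, a span of 0.39, and for Foxo1 8.77, 8.78 and 8.77. This span was larger than the HP over NP difference for 5 of the 10 genes (Insr, Irs1, Irs2, Pik3r1 and Pdk4) and smaller for 5. The span is the highest minus the lowest of single pools, whereas the HP over NP difference is between means of several pools. These carry different noise, so which is larger does not show whether a difference exceeds the spread between pools. The same count was not made for all genes. For Ppp1r3b the span was 0.21, against an HP over NP difference of 0.45 in size, and for Gcgr it was 0.13 against 0.22.

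**Figure D3:**
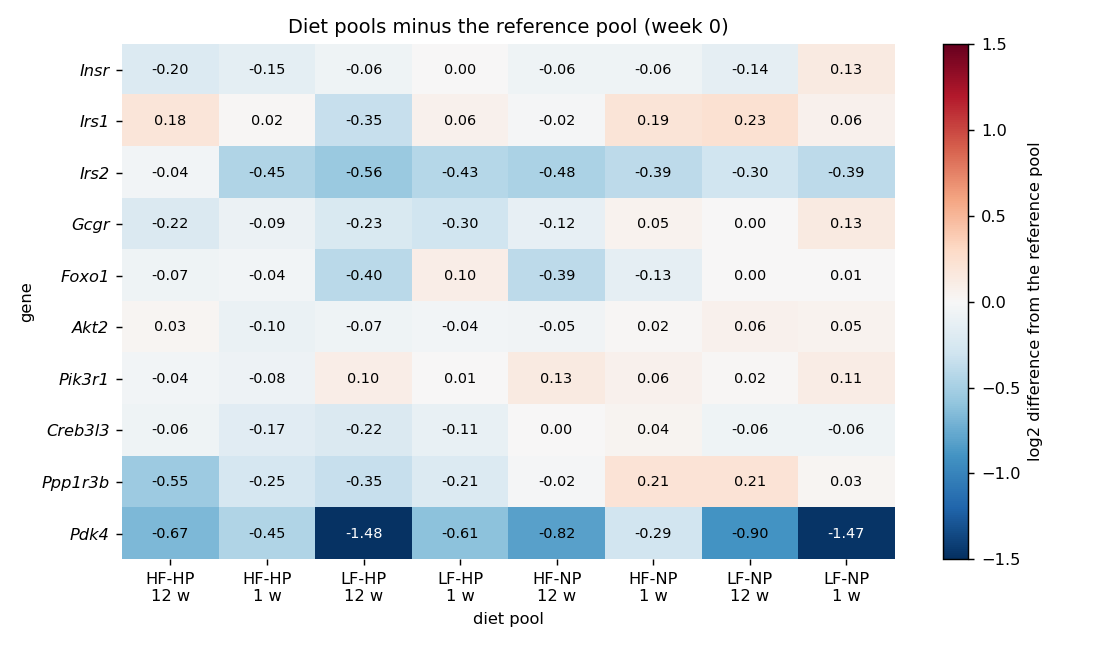
Log2 difference of each of the 8 diet pools (columns) from the reference pool of week 0 for each gene (rows), with the value printed and blue for lower, red for higher. Pdk4 and Irs2 are below the reference pool in all 8 columns, and Ppp1r3b is below it by 0.21 to 0.55 in the HP columns.

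Pdk4 was the only one of the 10 genes whose values spanned at least 1 log2 unit, and the 3 genes with the most similar profile were sought for it. Likeness was the mean absolute difference between profiles centred on each gene's mean over the 9 pools, smaller meaning more alike. The 3 nearest were Trp53inp1 (0.19), a stress-induced regulator of autophagy, Angptl4 (0.19), a secreted inhibitor of lipoprotein lipase, and Lpin2 (0.20), a phosphatidate phosphatase. The median over all genes was 0.39 and the nearest 1% lay within 0.30. All 3 were lowest in the LF-HP pool of 12 weeks, at 8.61 for Trp53inp1, 9.07 for Angptl4 and 9.84 for Lpin2. Trp53inp1 and Lpin2 were, like Pdk4, highest in the reference pool (9.98 and 10.93). The 3 genes were picked for likeness over these same pools, so shared lows and highs follow from the choice. They parted from Pdk4 in the LF-NP pool of 1 week, where Trp53inp1 had 9.31, Angptl4 9.77 and Lpin2 10.33, each well above its lowest pool.

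**Figure D4:**
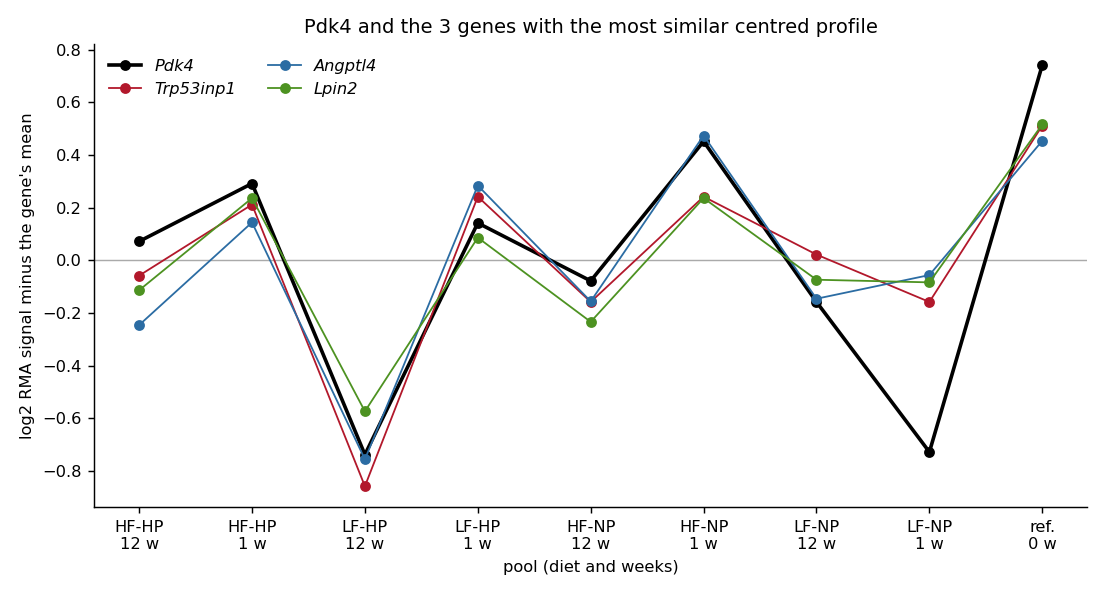
Log2 signal minus the gene's own mean over the 9 pools (vertical axis) for Pdk4 and the 3 genes most alike to it, by pool (horizontal axis). All 4 dip in the LF-HP pool of 12 weeks, and Pdk4 alone dips as far in the LF-NP pool of 1 week.

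The pathways were examined in 7 lists, which hold the 10 genes as well, and 136 of their 147 genes were measured. The lists were drawn up with earlier results of these data known, which may raise the shares given here and below. Those shares are counts beside all genes, and no list was tested. Between HP and NP pools 1 of the 136 passed (limma, adjusted over 19938 genes), and 30 (22.1%) had an unadjusted p under 0.05, against 0.441% and 10.3% of all genes. The difference was above 0 for 63 and below 0 for 73, with a median of -0.02, while 51.9% of all genes were below 0 with a median of -0.004. For HF over LF and for 12 weeks over 1 week 0 of the 136 passed (limma), with 3 and 15 at an unadjusted p under 0.05, against 3.33% and 7.71% of all genes.

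The gene that passed was Pygl, liver glycogen phosphorylase, the enzyme that releases glucose units from glycogen and that the phosphatase complex of Ppp1r3b acts upon. Pygl had 10.43 and 10.19 in the HF-HP pools of 12 weeks and 1 week and 10.41 and 10.45 in the LF-HP pools, against 10.86 and 10.93 in the HF-NP pools and 10.89 and 11.05 in the LF-NP pools, with 10.84 in the reference pool. All 4 HP pools were below all 4 NP pools, as was so for 2.91% of all genes. Pygl fell by 0.56 on the log2 scale, with means of 10.37 ± 0.12 in HP pools and 10.93 ± 0.08 in NP pools (SD, n = 4 each; SE 0.07, adjusted p = 0.0383 by limma). The call was lost in 14 of 20 alternatives, among them each of the 8 that left out 1 pool (differences of -0.62 to -0.49, adjusted p between 0.0745 and 0.177), and the adjusted p was 0.0567 with matched comparisons as blocks.

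In the glycogen list 22 of 23 genes were measured, 12 above 0 and 10 below 0 with a median of 0.02, and 7 (31.8%) had an unadjusted p under 0.05, against 10.3% of all genes. Apart from Pygl and Ppp1r3b, the largest difference was that of Stbd1, a glycogen-binding protein, at -0.30 (adjusted p = 0.153). The liver glycogen synthase Gys2 differed by 0.06 (SE 0.06, adjusted p = 0.807). Of the other targeting subunits, Ppp1r3c differed by -0.23 (SE 0.15, adjusted p = 0.707), with its values spread from 8.17 to 9.16 in HP pools and from 8.47 to 9.57 in NP pools. These 3 genes are named after their values were seen.

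**Figure D5:**
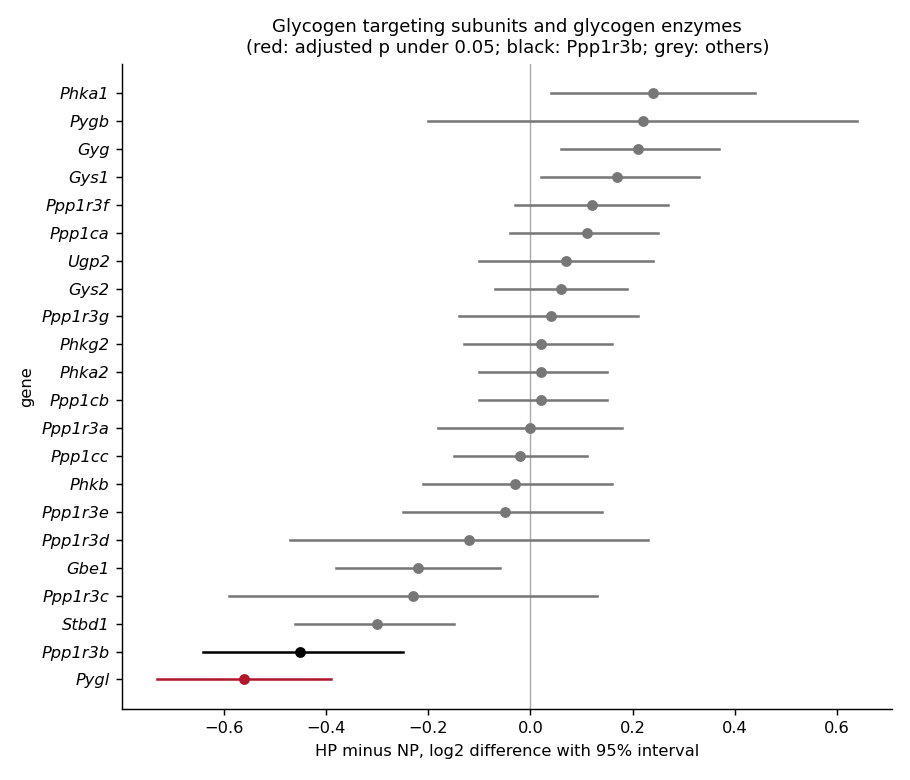
HP minus NP log2 difference with its 95% interval from limma (horizontal axis) for the 22 measured glycogen targeting subunits and enzymes, ordered by difference. Pygl (red, -0.56) is the only one past an adjusted p of 0.05, Ppp1r3b (black, -0.45) is next, and the others lie between -0.30 and 0.24.

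Of the insulin receptor, IRS, PI3K and AKT list, 18 of 23 measured genes were below 0 with a median of -0.08, none passed, and 2 (8.7%) had an unadjusted p under 0.05 (limma), against 10.3% of all genes. Its largest differences were those of Gsk3b, a kinase that AKT inhibits, at -0.19 (SE 0.07, adjusted p = 0.355), and Pik3cb, a catalytic subunit of phosphoinositide 3-kinase, at -0.14 (SE 0.06, adjusted p = 0.454). Of the brakes on the insulin signal, 9 of 17 were above 0, none passed, and 3 (17.6%) had an unadjusted p under 0.05. Phlpp1, a phosphatase that inactivates AKT, differed by -0.33 (SE 0.10, adjusted p = 0.266) and Grb14, which inhibits the insulin receptor, by -0.21 (SE 0.07, adjusted p = 0.339).

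The FOXO list and the glucagon, cyclic AMP and CREB list share Ppargc1a, a coactivator of gluconeogenic genes, which had the largest difference in both. It had 9.79 and 9.47 in the HF-HP pools of 12 weeks and 1 week and 8.68 and 9.15 in the LF-HP pools, against 7.64 and 7.90 in the HF-NP pools and 8.18 and 7.90 in the LF-NP pools, with 8.48 in the reference pool. HP and NP pools did not overlap, as was so in this direction for 1.88% of all genes. The difference was 1.36 (SE 0.22, adjusted p = 0.0592 by limma). Of the FOXO list 11 of 20 measured genes were above 0, none passed and 6 (30.0%) had an unadjusted p under 0.05 (10.3% of all genes), with Bcl6, a transcriptional repressor, at -0.79 (SE 0.26, adjusted p = 0.336). Of the glucagon list 17 of 31 were above 0, none passed and 8 (25.8%) had an unadjusted p under 0.05. Pck1, the gluconeogenic enzyme that makes phosphoenolpyruvate, differed by 0.44 (SE 0.12, adjusted p = 0.235).

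Of the CREB3 family and targets known for CREBH, 12 of 17 measured genes were below 0 with a median of -0.11, none passed, and 4 (23.5%) had an unadjusted p under 0.05 (limma), against 10.3% of all genes. Apoa4, an apolipoprotein, differed by -0.53 (SE 0.32, adjusted p = 0.671) and Apcs, the plasma protein serum amyloid P, by 0.50 (SE 0.08, adjusted p = 0.0527), with 8.86 to 9.15 in HP pools and 8.26 to 8.60 in NP pools. Of the pyruvate dehydrogenase list, 10 of 13 were above 0 with a median of 0.07, none passed, and 3 (23.1%) had an unadjusted p under 0.05. Pdpr, a regulatory subunit of pyruvate dehydrogenase phosphatase, differed by 0.23 (SE 0.06, adjusted p = 0.225) and Dld, a subunit of the dehydrogenase complex, by 0.22 (SE 0.07, adjusted p = 0.333).

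Each diet and week has 1 pool, so p-values measure the spread between pools after protein, fat and week are taken out, not the spread between mice. Diet pools differ in carbohydrate along with protein, and these cannot be told apart.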

How the data were processed

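Liver RNA pools (9, each from 5 mice) were read on 1 array each. The authors made the deposited log2 values by robust multiarray analysis (RMA: background correction, quantile normalisation, summary per probe set), and these were used unchanged. Arrays hold no counts, and precision is limited by how few there are. Of 35556 probe sets, 21789 had 1 gene symbol in the array annotation, 1621 several and 12146 none, which gave 19938 genes. The probe set with the highest mean over the 9 pools stood for each of the 999 genes that had more than 1. Protein, fat and week were fitted together as additive terms over the 8 diet pools with limma 3.58.1 in R 4.3.3 (4 residual degrees of freedom, prior 3.52). Each interaction was added to this fit as a further term. Benjamini-Hochberg adjustment ran over all genes with a threshold of 0.05 and no filter on the level, and the method was tested on simulated data. Alternatives were no covariates, a level filter, an intensity trend, array weights, centred arrays, mean or all probe sets, matched comparisons as blocks, linear signal, subsets of pools, leaving out each pool and a threshold of 0.1. The 10 genes and the pathway and marker lists were chosen with earlier results of these data known. In each list, genes past the test were named, up to 4, or the 2 with the largest difference where none passed, and the 3 genes most alike to a gene spanning at least 1 log2 unit. Promoters (RefSeq, GRCm38.p6) were searched on both strands. Python 3.11.15 was used with pandas 2.3.3, matplotlib 3.10.9 and NumPy 2.4.6. Listed genes without a value of their own were not analysed here.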

Additional observations from a re-analysis of the deposited data

Results flagged for a closer look

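No sample of any of the 20 groups of 4 pools formed by the 10 genes in HP and in NP pools stood apart from the others of its group by Dixon's criterion, which by chance marks about 1 in 20 such groups.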

How the results depend on the processing

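The count of the 10 genes called between HP and NP pools was 0 and became 1, Ppp1r3b, when only genes above the median level were tested and 1 at an adjusted p under 0.1. The count over all genes rose as well, from 88 of 19938 to 219 of 9969 above the median level and to 208 at an adjusted p under 0.1. Ppp1r3b lay between -0.54 and -0.35 and Gcgr between -0.32 and -0.12 over all 21 alternatives. Of the pathway genes 1 was called, against 0 to 1 without 1 pool, 2 with no covariates, 2 with an intensity trend, 3 with array weights, 3 with centred arrays, 4 among genes above the median level and 4 at an adjusted p under 0.1. Over all genes the count was 1 to 36 without 1 pool and 74 with no covariates. It was 118 with an intensity trend, 140 with array weights and 152 with centred arrays. For HP over NP, differences that were not called changed sign in Irs1 (0.01 in HF pools), Irs2 (-0.03 with array weights, -0.05 at 1 week, -0.15 in LF pools), Foxo1 (-0.04 at 12 weeks, -0.16 in LF pools) and Pdk4 (-0.22 at 12 weeks, -0.00 in HF pools). Leaving out 1 pool in turn gave Irs2 -0.10 to 0.12, Foxo1 -0.06 to 0.14 and Pdk4 -0.16 to 0.26. For HF over LF, Gcgr was -0.01 with array weights, with centred arrays and on linear signal, and Akt2 0.04 with the mean of its probe sets. Leaving out 1 pool in turn gave Irs1 -0.03 to 0.19, Irs2 -0.05 to 0.16, Gcgr -0.06 to 0.05, Foxo1 -0.20 to 0.01 and Akt2 -0.07 to 0.01. For 12 weeks over 1 week, Akt2 was -0.00 with array weights. Leaving out 1 pool in turn gave Irs1 -0.17 to 0.05, Irs2 -0.06 to 0.16, Akt2 -0.03 to 0.04, Pik3r1 -0.00 to 0.08 and Creb3l3 -0.04 to 0.02. The cause was not tested. The labels carry no replicate numbers that pair pools. With HP and NP pools of the same fat level and week as blocks, 0 of the 10 genes were called (Ppp1r3b adjusted p = 0.0937, limma), and 39 of all genes against 88. Ties between deposited values and the number of arrays limit the precision of small differences.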
